A study of Mus musculus with 6 samples.

Results

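A set of 37 endothelial identity genes was followed in cultured mouse aortic endothelial cells (MAEC) labelled Oct4 KO. The genes were chosen by name, as genes that mark or equip the endothelium, and each of the 37 symbols matched 1 row of the 54532 genes in the count table. Bulk RNA-seq was done on 3 libraries from female and 3 from male mice. The design text describes an endothelial-cell-specific knockout of OCT4, the pluripotency factor encoded by Pou5f1, primary cultures of aortic endothelial cells, and an interest in what OCT4 does there. All 6 libraries carry the Oct4 KO label and none was treated. The cells were grown in F-12 medium with serum, heparin and endothelial growth factors. Wild-type littermate cells are not analysed here, which leaves female against male Oct4 KO cells as the one comparison. The Cre driver, strain, age and passage number, and how the cells were purified, are not given in the sources used here. No label says that the 3 libraries of a sex are independent cultures or mice, and p-values therefore reflect only how far these libraries spread, which may be technical. For the same reason, a difference between the sexes cannot be told apart from a difference between cultures.

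Endothelial cells line the inside of every blood vessel. Their identity is kept by a set of ETS-family transcription factors, among them ERG and FLI1, and shows in junction proteins such as VE-cadherin and CD31, in stored von Willebrand factor, in receptors for TGF-beta family ligands, sphingosine-1-phosphate and adrenomedullin, and in the selectins that catch leukocytes. Cells in culture can lose part of this programme, and several of these genes, such as Cd34, Eng and Esm1, are also made by cells that are not endothelial.

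Total counts were 19299742 to 23064738 per library, so that a gene without reads may still be present at up to 3 counts (95%), or 0.123 to 0.154 CPM. CPM is the count scaled by the effective library size, and RPKM is that value per kilobase of the gene length in the table. Limits and intervals cover counting error only. The targeted gene, Pou5f1, had 0 counts in all 6 libraries, and with no wild-type library beside them this says nothing of the genotype. Sex labels were matched by Xist, with 21282 to 31900 female and 0 to 8 male counts, and by Ddx3y, Kdm5d, Eif2s3y and Uty, each at 0 counts in every female library and at 190 or more in every male library.

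Most of the endothelial identity genes were barely read. Of the 37 genes, 5 had 0 counts in every library and another 14 stayed under 1 CPM in all of them, so 19 (51.4%) were under 1 CPM throughout, against 42.9% of 22046 protein-coding genes. The share at 0 counts in every library was the lower one, at 13.5% against 26.7% of protein-coding genes. Only 10 (27.0%) reached 1 CPM in every library, where 50.1% of protein-coding genes did, and 5 reached 10 CPM in every library (13.5% against 37.0%). Those 5 were Esm1, Eng, Calcrl, Apln and Cd34. Selp, S1pr1, Plvap, Ramp2 and Egfl7 made up the rest of the 10. A further 4 reached 1 CPM in every library of 1 sex only, Sele, Ramp3 and Cd93 in female and Pecam1 in male cells, and Fli1, Rasip1, Clec14a and Bmx did so in some libraries. In a bulk sample, fewer cells of a type and less RNA per cell cannot be told apart.

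**Figure D1:**
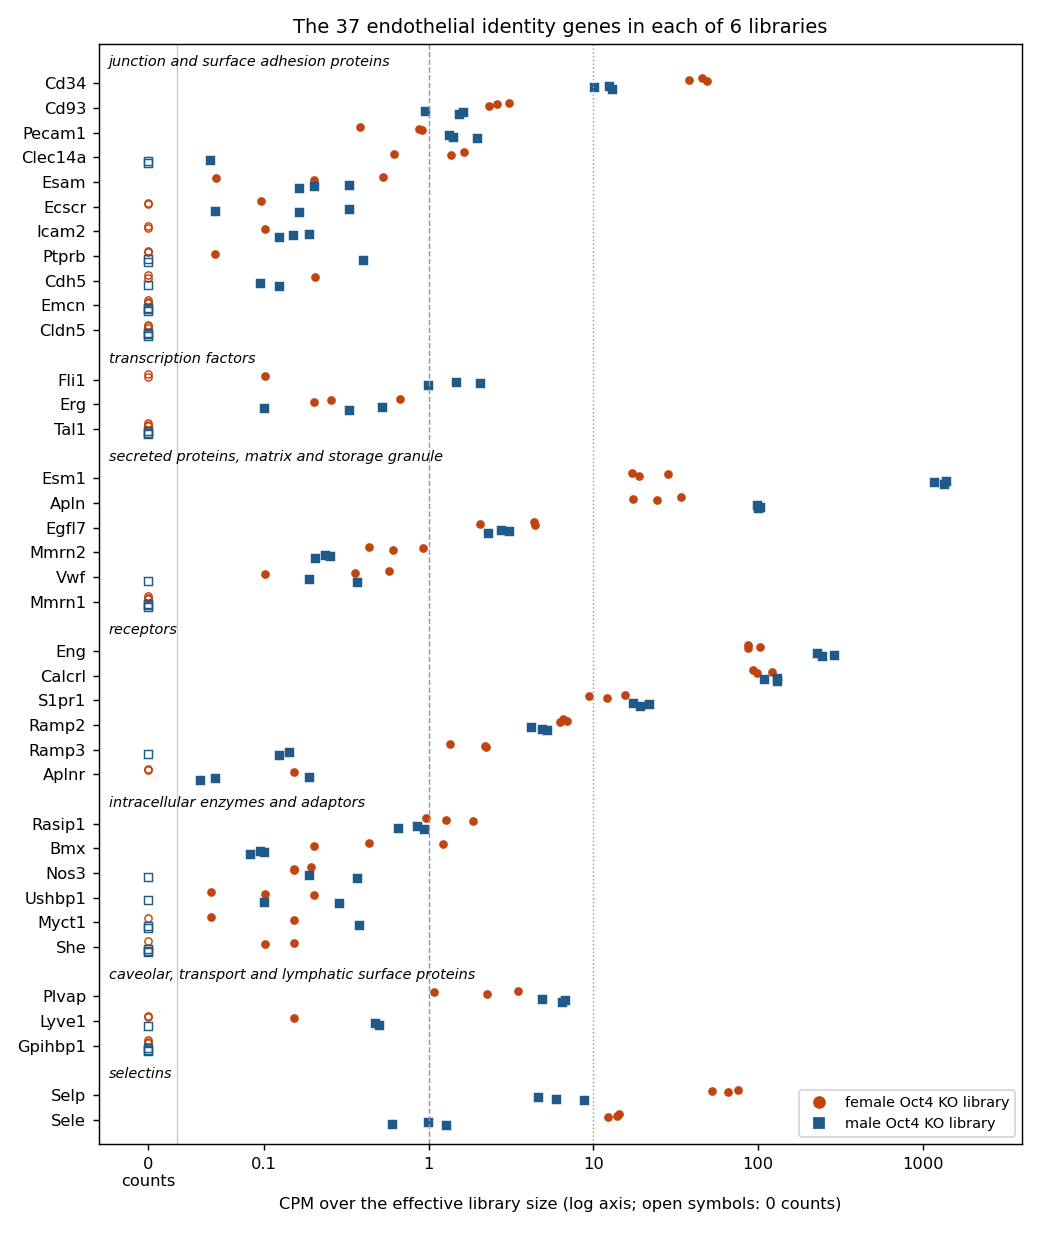
Level of each of the 37 endothelial identity genes in CPM (log axis), with 1 symbol per library, circles for the 3 female and squares for the 3 male Oct4 KO libraries, and open symbols at the left for 0 counts. The dashed line marks 1 CPM and the dotted line 10 CPM. Esm1, Eng, Apln and S1pr1 lie to the right in male cells and Cd34, Selp and Sele in female cells, while Emcn, Cldn5, Tal1, Mmrn1 and Gpihbp1 have open symbols only.

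Of 6 genes that often define an endothelial cell (Cdh5, Pecam1, Erg, Vwf, Cldn5 and Nos3), Pecam1 had the most reads, with 8, 17 and 18 female and 28, 28 and 48 male counts, and the other 5 had at most 14 counts in any library. Cdh5 (mm10 chromosome 8, 104101625 to 104144511), the gene of the junction cadherin VE-cadherin, had counts of 0, 4 and 0 (female libraries) and 2, 0 and 3 (male libraries). Vwf (chromosome 6, 125546774 to 125686679), which encodes von Willebrand factor of the endothelial storage granule, had 12, 7 and 2 counts in female and 4, 0 and 9 in male libraries. Nos3, the endothelial nitric oxide synthase gene, had 4, 3 and 3 against 4, 0 and 9 counts. For Cdh5, Vwf and Nos3 the sexes overlapped, and none of them passed the low-count filter. Cldn5, the tight junction claudin of endothelium, was at 0 counts in all 6 libraries, as were Emcn (the sialomucin endomucin), Tal1 (a basic helix-loop-helix factor of blood and vessel progenitors), Mmrn1 (multimerin 1) and Gpihbp1 (the capillary anchor of lipoprotein lipase). For a gene at 0 counts, a level of up to 0.123 to 0.154 CPM, depending on the library, is not excluded by the count.

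Per kilobase, the order of the genes differed between the sexes at the top. In female cells Eng (22.8 ± 2.20 RPKM, SD, n = 3) and Calcrl (21.3 ± 3.08) differed by less than their SDs, followed by Selp (14.6 ± 2.58), Esm1 (10.2 ± 2.86), Apln (8.01 ± 2.70), Cd34 (6.05 ± 0.747), Sele (4.63 ± 0.374) and S1pr1 (4.05 ± 1.02). Of the other neighbours in that order, Esm1 and Apln, Apln and Cd34, and Sele and S1pr1 differed by less than the larger of their SDs. In male cells Esm1 stood first at 617 ± 51.0 RPKM, then Eng (62.5 ± 7.87), Apln (31.8 ± 0.735), Calcrl (24.98 ± 2.51), S1pr1 (6.36 ± 0.710) and Plvap (3.02 ± 0.492). Ranked by CPM in each library among all genes, Esm1 was at positions 52 to 74 in male and 6338 to 7877 in female libraries, Eng at 525 to 709 and 2124 to 2534, and Calcrl at 1423 to 1774 and 1753 to 2332. Pecam1 was at 12001 to 12542 in male and 13349 to 14996 in female libraries. The median CPM rank over the 37 genes was 14766 to 16374 in the 6 libraries, each of which had a count for 18218 to 20724 genes.

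**Figure D2:**
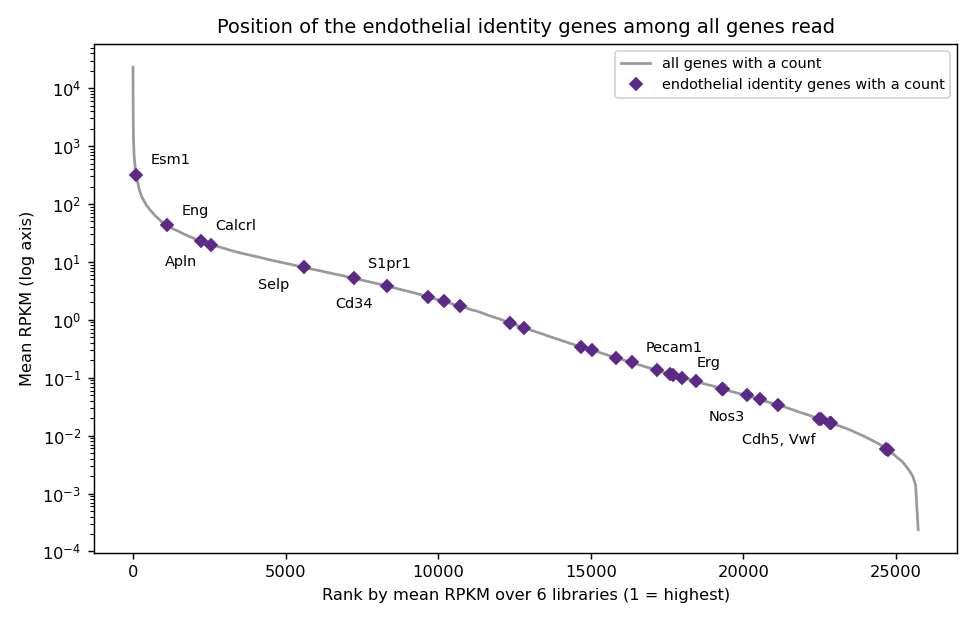
Mean RPKM over all 6 libraries (log axis) against rank for the 25723 genes with a count in any library (line), with diamonds for the 32 endothelial identity genes that had one. Esm1, Eng, Calcrl and Apln are at ranks 115, 1123, 2218 and 2563, while Pecam1, Erg, Nos3, Cdh5 and Vwf lie between 16333 and 22873.

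The sexes were compared with edgeR over the 14814 genes that passed the low-count filter, of which 60.7% were called at an adjusted p under 0.05 (30.9% higher and 29.8% lower in female cells). The filter left 17 of the 37 endothelial identity genes. Female cells had more Selp, Sele, Cd34, Cd93, Ramp3 and Clec14a RNA (6 genes), and less Esm1, Apln, Eng, S1pr1, Plvap, Fli1 and Pecam1 (7 genes). Calcrl, Ramp2, Egfl7 and Rasip1 (4 genes) were not called. A gene read in 1 sex only can pass the filter through that sex, so the 13 calls among 17, and the median below, describe the genes tested and not the list. Of the tested endothelial identity genes 8 had a mean under 5 CPM, a range in which 42.2% of all tested genes were called. Among these 8, Pecam1, Fli1, Clec14a, Plvap, Ramp3 and Cd93 were called, and Egfl7 and Rasip1 were not. The median log2 fold change, female over male, was 0.41 over the 17 genes and -0.01 over all tested genes. Female and male CPM ranges were separate for 15 of the 17, and for 67.1% of all tested genes.

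**Figure D3:**
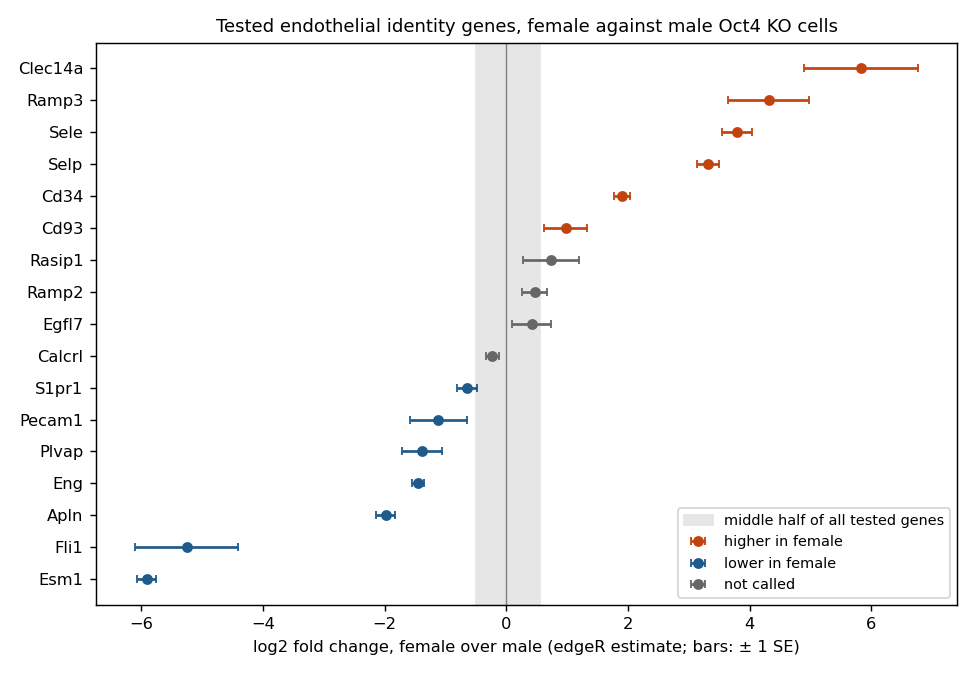
log2 fold change, female over male, of the 17 tested endothelial identity genes (points, edgeR estimate, bars ± 1 SE), coloured by call, with a grey band from the lower to the upper quartile of all 14814 tested genes (-0.50 to 0.56). Esm1 (-5.91) and Clec14a (5.83) stand at the ends, and the SE is widest for Clec14a and Fli1, which rest on few counts.

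Promoter sequences are shown for the genes on which these results turn, Esm1 and Eng with more RNA in male cells, Selp and Sele with more in female cells, and Cldn5 with 0 counts. They are from RefSeq (GRCm38.p6, which is mm10), run 5′ to 3′ on the gene's strand from 250 bases before to 50 bases after the start, and are in lower case with each ETS core, GGAA or its reverse complement TTCC, in capitals. All 5 genes are on the plus strand.
Esm1, chr13:113209409-113209708: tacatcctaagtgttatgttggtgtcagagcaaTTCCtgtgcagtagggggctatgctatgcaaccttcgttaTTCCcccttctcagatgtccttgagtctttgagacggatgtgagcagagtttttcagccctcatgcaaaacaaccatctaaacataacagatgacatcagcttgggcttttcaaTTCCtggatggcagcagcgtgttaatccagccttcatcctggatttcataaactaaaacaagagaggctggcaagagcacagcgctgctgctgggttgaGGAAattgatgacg
Eng, chr2:32646345-32646644: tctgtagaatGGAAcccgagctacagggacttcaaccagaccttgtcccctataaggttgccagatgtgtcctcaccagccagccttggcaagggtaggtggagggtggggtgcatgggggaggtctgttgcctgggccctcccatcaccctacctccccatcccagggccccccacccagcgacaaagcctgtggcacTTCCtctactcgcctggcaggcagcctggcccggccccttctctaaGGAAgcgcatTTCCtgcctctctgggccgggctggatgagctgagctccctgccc
Selp, chr1:164115014-164115313: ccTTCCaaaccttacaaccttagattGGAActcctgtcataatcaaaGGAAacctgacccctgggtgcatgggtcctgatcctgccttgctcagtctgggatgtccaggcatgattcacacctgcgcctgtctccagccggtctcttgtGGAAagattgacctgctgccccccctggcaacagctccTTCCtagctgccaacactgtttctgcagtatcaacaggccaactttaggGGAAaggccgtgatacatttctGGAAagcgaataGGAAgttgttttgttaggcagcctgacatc
Sele, chr1:164047984-164048283: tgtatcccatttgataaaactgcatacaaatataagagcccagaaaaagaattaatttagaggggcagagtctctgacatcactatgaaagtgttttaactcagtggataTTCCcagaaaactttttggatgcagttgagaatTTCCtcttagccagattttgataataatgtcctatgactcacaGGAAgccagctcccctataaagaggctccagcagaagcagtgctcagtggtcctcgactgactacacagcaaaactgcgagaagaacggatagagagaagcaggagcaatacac
Cldn5, chr16:18776597-18776896: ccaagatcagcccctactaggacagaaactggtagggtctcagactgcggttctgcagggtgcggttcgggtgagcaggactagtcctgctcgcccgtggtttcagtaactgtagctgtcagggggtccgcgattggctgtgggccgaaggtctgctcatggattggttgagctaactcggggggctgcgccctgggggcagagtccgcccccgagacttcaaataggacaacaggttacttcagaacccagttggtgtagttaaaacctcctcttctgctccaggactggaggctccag

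The ETS core was searched because ERG and FLI1 bind it. The 300 bases held 4 matches on either strand for Esm1, 4 for Eng, 8 for Selp, 3 for Sele and 0 for Cldn5. A match is common, since 96.0% of 32851 RefSeq promoters of that length had at least 1 and the median was 3. An entry was found for 20 of the 37 genes (25 promoters, counting alternative starts), with 0 to 9 matches and a median of 4. The longer ETS sequence CCGGAAGT, which contains the core, was in 0 of these 25 and in 3.89% of all promoters. These are matches of letters and not sites, and their absence says only that the letters are not in this window.

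Among the secreted proteins, Esm1 differed widely between the sexes and gave, in male cells, most of the summed CPM of the set. Esm1 (chromosome 13, 113209659 to 113218098) encodes endocan, a secreted proteoglycan known from the tip cells of growing vessels. It stood at 17.2, 28.4 and 18.9 CPM in female and 1371, 1171 and 1338 CPM in male libraries. Every male library was far above every female one, a female over male log2 fold change of -5.91 ± 0.16 (SE, edgeR adjusted p = 7.59e-15), 60.2-fold lower in female cells. Esm1 alone gave 67.7% to 73.0% of the summed CPM of the 37 genes in male and 4.24% to 7.01% in female libraries. The sum was 1730 to 1879 CPM in male and 390.5 to 406.6 in female cells, and without Esm1 it was 508 to 559 and 372 to 389.

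Apln (chromosome X, 48025146 to 48034853), the gene of the vascular peptide apelin, was at 34.2, 17.3 and 24.2 CPM in female and 97.8, 102.4 and 99.98 CPM in male libraries. The male libraries lay close together and above all female ones (log2 -1.99 ± 0.16, adjusted p = 1.36e-08). Its receptor gene Aplnr had 0, 0 and 3 counts in female and 4, 1 and 1 in male libraries, too few to test. Egfl7, which encodes a secreted regulator of vessel formation and hosts miR-126, was at 4.34, 2.05 and 4.40 against 2.75, 3.07 and 2.30 CPM. The sexes overlapped for Egfl7, which was not called (log2 0.41 ± 0.32, adjusted p = 0.277), but was called without female replicate 2 (log2 0.70, adjusted p = 0.0496). Mmrn2, the multimerin of the endothelial matrix, had 9, 18 and 12 counts in female and 5 in each male library and was not tested.

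Of the receptor genes, Eng was higher in male cells, as was S1pr1, while the adrenomedullin receptor gene Calcrl was not called. Eng (chromosome 2, 32646595 to 32682669), which encodes the TGF-beta co-receptor endoglin, was at 87.0, 102.4 and 86.9 CPM in female and 225.9, 288.0 and 244.7 CPM in male libraries. The lowest male library was above the highest female one by over 100 CPM (log2 -1.46 ± 0.10, edgeR adjusted p = 1.50e-09). S1pr1, a sphingosine-1-phosphate receptor that steadies the endothelial barrier, was at 15.6, 9.36 and 12.1 against 17.3, 21.6 and 19.2 CPM. Here the gap between the sexes was small, and the gene was called lower in female cells (log2 -0.65 ± 0.17, adjusted p = 0.00329).

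Calcrl (chromosome 2, 84330626 to 84425411) encodes a receptor that binds adrenomedullin only together with a RAMP partner protein. It stood at 92.9, 121.1 and 97.8 CPM in female and 129, 107.8 and 129 in male libraries, and the sexes overlapped. It was not called (log2 -0.23 ± 0.10, edgeR adjusted p = 0.0633), though over 14 alternative settings its adjusted p ran from 0.00428 to 0.282 with a log2 change of -0.35 to -0.15. It was called without female replicate 2 (log2 -0.35, adjusted p = 0.00428) and without male replicate 2 (-0.33, adjusted p = 0.0133). The RAMP genes among the endothelial identity genes, Ramp2 and Ramp3, were both read at much lower levels per kilobase than Calcrl. Any other RAMP gene is not reported here, so the level of partner RNA as a whole was not tested. Ramp2 was at 6.51, 6.91 and 6.28 CPM in female and 4.17, 4.89 and 5.22 in male libraries, which did not overlap, but it was not called (log2 0.46 ± 0.20, adjusted p = 0.057), except with the gene length correction (log2 0.63, adjusted p = 0.0135). Its exons share 1103 bases with Vps25 on the same strand, so how reads were split between Ramp2 and Vps25 is uncertain. The Ramp2 length is 3301 bases, and Vps25 had 9 female and 34 male counts. The level of Ramp2 per kilobase and its ratio to Calcrl carry the same uncertainty. Ramp3 was at 1.35, 2.20 and 2.23 CPM in female libraries, against male counts of 3, 0 and 3 (log2 4.31 ± 0.67, adjusted p = 2.84e-05). The ratio of Calcrl to Ramp2 in RPKM was 9.65, 11.9 and 10.5 in female and 20.9, 14.9 and 16.7 in male libraries. Calcrl to Ramp3 was 19.4, 15.6 and 12.4 in female libraries; the 2 male libraries with Ramp3 counts gave 257 and 296.

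Junction and surface genes divided between the sexes, at low levels apart from Cd34. Cd34 (chromosome 1, 194938819 to 194961279), a sialomucin gene of vessels, progenitors and some stromal cells, was at 45.4, 38.2 and 48.9 CPM in female and 12.5, 10.1 and 13.0 CPM in male libraries, without overlap (log2 1.89 ± 0.13, edgeR adjusted p = 1.86e-09). Pecam1 (chromosome 11, 106654217 to 106750628), the gene of the adhesion protein CD31, went the other way, at 0.386, 0.870 and 0.911 against 1.33, 1.41 and 1.97 CPM. All male libraries were above all female ones, but the call (log2 -1.12 ± 0.47, adjusted p = 0.0486) was lost in 10 of 14 alternative settings, among them each of the 6 fits without 1 library (adjusted p = 0.0626 to 0.201). Per kilobase Eng exceeded Pecam1 in the same library 147- to 347-fold.

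Clec14a and Cd93, related C-type lectin receptors that bind multimerin 2, were both higher in female cells. Clec14a had female counts of 34, 12 and 27 and male counts of 1, 0 and 0, a ratio of 79.4 (95% counting interval 13.8 to 3180). The edgeR test called it at an adjusted p of 4.38e-05, with a fitted log2 change of 5.83 that became 7.66 without male replicate 1, the only male library with a count. Cd93 was at 3.09, 2.61 and 2.33 against 0.947, 1.61 and 1.52 CPM (log2 0.97 ± 0.36, adjusted p = 0.0269). Its call was lost without female replicate 1 (adjusted p = 0.103), without male replicate 1 (0.109) and with the gene length correction (0.0745). The junction genes Esam, Icam2, Ecscr and Ptprb (which encodes the VE-cadherin-associated phosphatase VE-PTP) had at most 11 counts in any library and were not tested.

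The transcription factor genes were close to the detection limit, with 1 difference. Fli1 (chromosome 9, 32422204 to 32542861), an ETS factor of endothelial and blood cells, had female counts of 0, 2 and 0 and male counts of 31, 41 and 24. The ratio was 44.1-fold lower in female cells (95% counting interval 11.9 to 370), and edgeR called the gene at an adjusted p of 4.24e-05. Its fitted log2 change was -5.26, and -7.99 without female replicate 2, the only female library with counts. Erg (chromosome 16, 95359169 to 95586593), the ETS factor that is most restricted to endothelium, had 14, 5 and 4 counts in female and 11, 2 and 8 in male libraries. The sexes overlapped for Erg, which was not tested.

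Both selectin genes were higher in female cells. Selp (chromosome 1, 164115264 to 164150026) encodes P-selectin, an adhesion receptor stored with von Willebrand factor and also made by platelets. Selp was at 75.2, 52.5 and 65.6 CPM in female and 4.64, 5.89 and 8.71 CPM in male libraries. Sele, the gene of the cytokine-induced E-selectin, was at 14.3, 13.9 and 12.2 against 0.995, 0.604 and 1.27 CPM. Neither gene overlapped between the sexes, with log2 changes of 3.32 ± 0.18 (edgeR adjusted p = 9.87e-11) for Selp and 3.79 ± 0.25 (8.16e-10) for Sele. Exons of the antisense gene Gm16587 share 186 bases with Selp, and Gm16587 itself had 307 counts in female and 9 in male libraries. The sources used here do not say whether the counting used strand, so reads of that stretch cannot be assigned to one of the 2 with certainty. The same holds for shorter or less-read antisense overlaps of Eng (61 bases with Fpgs), Egfl7 (64 with Agpat2), Cd34 (148 with Gm16897), Ramp3 (101 with Gm11978), Nos3 (294 with Atg9b) and Selp (438 with Gm16548, at 12 female and 2 male counts).

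Selp and Sele lie 57.6 kb apart on chromosome 1. The nearest tested protein-coding gene after Selp is F5 (164151838 to 164220277), which encodes coagulation factor V. Its level was 165.5 ± 47.1 CPM (female) against 3.59 ± 0.489 CPM (male), a log2 change of 5.53 ± 0.19 (edgeR adjusted p = 1.61e-13). Farther out the differences were smaller and went in both directions: Mettl18 had a log2 change of -0.93 ± 0.34 (adjusted p = 0.0236), Slc19a2 of -0.35 ± 0.10 (0.00589), Ccdc181 of 1.35 ± 0.22 (4.28e-05) and Kifap3 of 0.42 ± 0.09 (0.000974). Scyl3 (-0.20, adjusted p = 0.183), BC055324 (-0.42, adjusted p = 0.124) and Blzf1 (-0.25, adjusted p = 0.0781) were not called. These neighbours were chosen after the values of Selp and Sele were seen.

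**Figure D4:**
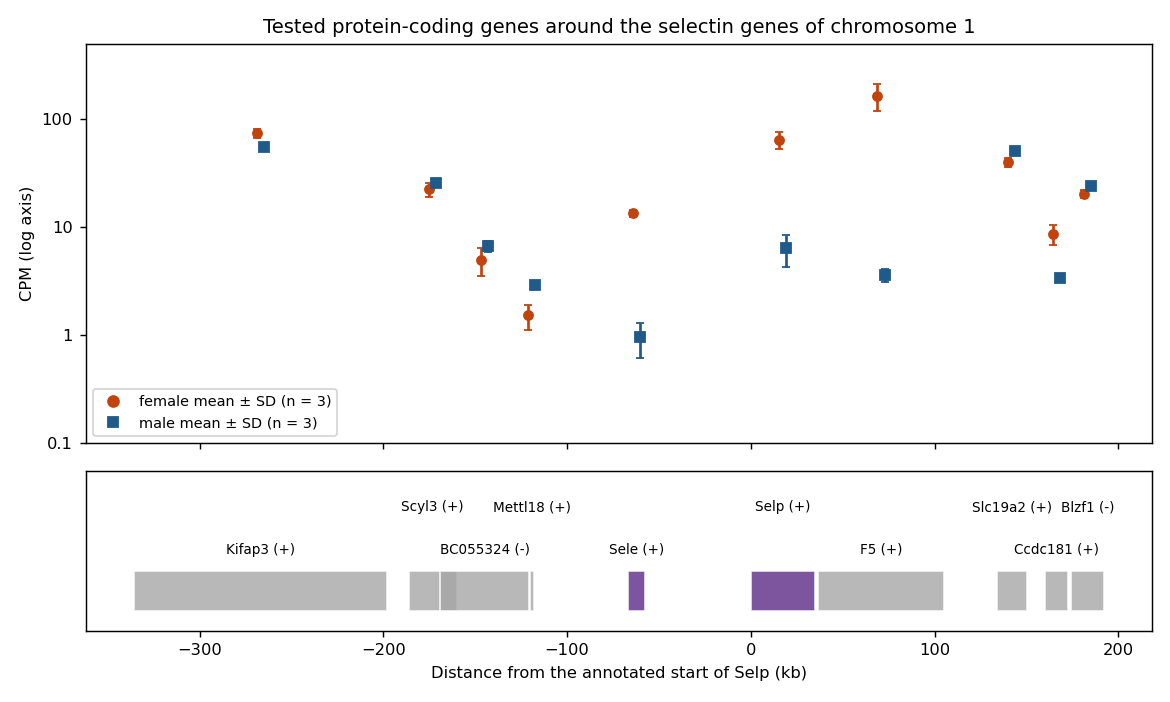
Tested protein-coding genes within 150 kb of Sele and Selp, drawn to scale by distance from the start of Selp (lower panel, strand in brackets, Scyl3 and BC055324 overlapping), with mean CPM ± SD (n = 3) of female (circles) and male (squares) libraries above the middle of each gene (log axis, offset sideways). Sele, Selp and F5 are the genes with the widest gap between the sexes.

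The remaining genes were low in both sexes. Plvap, which forms the diaphragms of endothelial fenestrae and caveolae, was at 3.47, 1.07 and 2.28 CPM in female and 4.88, 6.70 and 6.41 CPM in male libraries, without overlap (log2 -1.39 ± 0.33, edgeR adjusted p = 0.00145). Lyve1, the hyaluronan receptor of lymphatic endothelium, had 0, 0 and 3 counts in female and 10, 10 and 0 in male libraries. The sexes overlapped for Lyve1, which was not tested. Among the intracellular genes, Rasip1, which acts in the formation of vessel lumens, was at 0.965, 1.28 and 1.87 against 0.853, 0.655 and 0.945 CPM and was not called (log2 0.74 ± 0.46, adjusted p = 0.176). Rasip1 shares 654 exon bases with Izumo1 on the same strand and 498 with the antisense gene A030001D20Rik. The latter had 62 female and 57 male counts, beside 82 and 54 for Rasip1, so the reads of Rasip1 cannot be assigned with certainty. Bmx, an X-linked non-receptor tyrosine kinase gene, had 9, 24 and 4 counts in female and 2 in each male library. She, Myct1 and Ushbp1 had at most 8 counts in any library.

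A list of 60 other endothelial genes also ranged from 0 counts to high levels. Of the 60, 5 (Robo4, Sox17, Hey2, Adgrl4 and Etv2) had 0 counts throughout, 18 were under 1 CPM in all libraries and 21 reached 10 CPM in all. Of all protein-coding genes, 26.7% were at 0 throughout, 42.9% under 1 CPM and 37.0% at or above 10 CPM in every library. Kdr, which encodes VEGF receptor 2, had 6, 16 and 6 female counts and none in male cells (0 counts in each library). Tek and Tie1, the genes of the angiopoietin receptor TIE2 and its partner, had 3 to 9 and 0 to 2 counts per library. Of 41 tested genes, female cells had more of 17 and less of 21, and 3 were not called, with a median log2 change of -0.33 beside -0.01 over all tested genes, of which 30.9% were higher and 29.8% lower. A list whose genes were kept by the same filter shares the limit given above, and the same background holds for the marker lists that follow. The adhesion genes Vcam1 (93.0 ± 4.78 against 1593 ± 79.8 CPM, log2 -4.10 ± 0.09) and Icam1 (23.5 ± 2.19 against 91.7 ± 5.41) were lower in female cells, opposite to the selectins, as were Heg1, Nrp1, Rhoj and Aqp1. Thrombomodulin (Thbd, 1389 ± 31.7 against 218.3 ± 16.9 CPM), the mucin-like glycoprotein gene Pdpn (1358 ± 22.9 against 418.0 ± 22.7), the ETS factor gene Ets1 (74.5 ± 1.12 against 34.9 ± 2.53) and Flt1 were higher. For these 10 genes the adjusted p of edgeR was at most 8.27e-07.

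**Figure D5:**
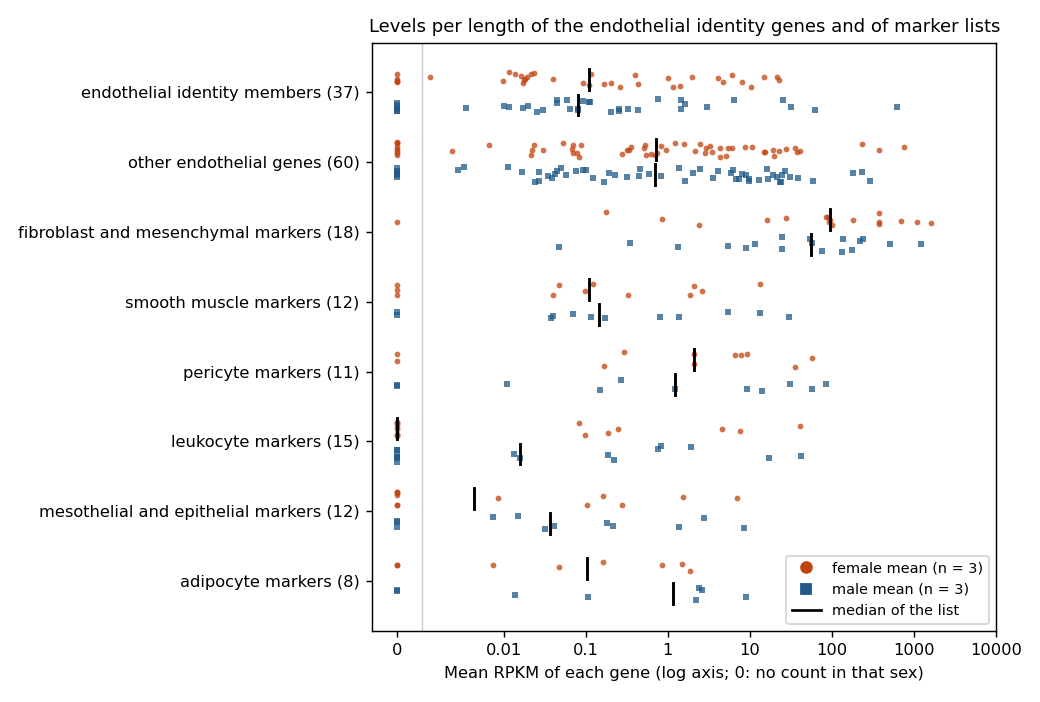
Mean RPKM per gene (log axis, 0 at the left) of the 37 endothelial identity genes and of 7 other lists, with 1 circle per gene for female and 1 square for male cells (means of 3 libraries) and a black bar at the median of the list. The medians of the endothelial identity genes are 0.109 and 0.0812 RPKM. Those of the other endothelial genes are 0.719 and 0.704, and those of the fibroblast and mesenchymal markers 92.8 and 54.6.

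Markers of other cell types were set beside these values. These lists overlap in part with what several cell types express, so a high level does not by itself name a cell type. Of 18 fibroblast and mesenchymal markers, 13 reached 10 CPM in every library and none was at 0 throughout. Their sum was 37421 to 40285 CPM in female and 23769 to 25876 in male libraries, with Fn1 (1596 ± 176 against 1218 ± 59.1 RPKM), Dcn (1091 ± 76.7 against 75.6 ± 10.04) and Vim (376 ± 35.9 against 506 ± 49.6) the most abundant per kilobase. Female cells had more of 11 and less of 5 of these markers. For 11 pericyte markers the sum was 593 to 619 in female and 797 to 833 CPM in male libraries, with Pdgfrb, Rgs5 and Anpep leading and Higd1b and Vtn at 0, and of 9 tested, 5 were higher and 4 lower in female cells. Rgs5 was at 0.755 ± 0.455 (female) against 255.6 ± 10.1 CPM (male), and without it the pericyte sum turned, to 592.8 to 618.6 CPM (female) against 530.2 to 579.2 (male). For 12 smooth muscle markers, led by Smtn, Acta2 and Myl9, the sums were 83.8 to 86.7 and 165.6 to 181.6 CPM, with Myocd and Actg2 at 0, and of 7 tested, 2 were higher and 4 lower in female cells. The male libraries, with more Esm1, Eng and Apln, thus held more summed smooth muscle marker RNA, also without Smtn (38.2 to 45.2 against 27.2 to 28.7 CPM). The female libraries, with more Cd34, Selp and Sele, held more summed fibroblast marker RNA, also without Dcn (30886 to 34425 against 23323 to 25378 CPM). The part of these markers in those differences was not tested, and the sums without 1 gene were added after the values were seen.

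Among 15 leukocyte markers Ptprc (CD45), Adgre1, Cd3e, Tyrobp, Laptm5 and C1qa were at 0 in all libraries, and the sums, mostly Cd14, Lyz2 and Cd68, were 70.5 to 86.3 CPM in female and 78.2 to 96.9 in male libraries. Of 12 mesothelial and epithelial markers, led by Krt18, Cldn15 and Bnc1, 8 were under 1 CPM throughout and Msln, Upk3b and Lrrn4 were at 0 (sums of 16.0 to 22.4 and 18.5 to 25.7 CPM). Of 8 adipocyte markers, led by Pparg, Lipe and Fabp4, all 4 tested were lower in female cells (sums of 16.2 to 20.4 and 47.2 to 59.7 CPM). Set against the endothelial label, the values were mixed. Cdh5, Cldn5, Erg, Nos3 and Vwf had at most 14 counts in any library, and Pecam1 at most 48. Kdr, Tek and Tie1 had at most 16, and Robo4, Sox17, Hey2, Adgrl4 and Etv2 had 0. Eng, Calcrl, Thbd and Flt1 were above 10 CPM in every library. That level was reached by 5 of the 37 (13.5%) and 21 of the 60 other endothelial genes, against 37.0% of protein-coding genes. The median RPKM of the 37 genes was 0.109 (female) and 0.0812 (male), far below the 92.8 and 54.6 of the fibroblast and mesenchymal markers. In the same order, medians were 0.719 and 0.704 for the other endothelial genes. They were 2.08 and 1.23 for pericyte, 0.111 and 0.145 for smooth muscle and 0.104 and 1.14 for adipocyte markers. Leukocyte markers had medians of 0 and 0.0157, and mesothelial and epithelial markers of 0.00431 and 0.0367.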

How the data were processed

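Polyadenylated RNA was fragmented and copied from random hexamers, per the labels' protocols, which do not say whether the libraries kept strand. The submitters' processing notes name HISAT2 2.0.5, featureCounts 1.5 and the build mm10. Raw counts per gene were deposited by the authors in 1 table, which also gives gene lengths. How multi-mapping reads were treated is not stated there.

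CPM used effective library sizes (library size times TMM factor), and RPKM divided CPM by the gene length. Female was compared with male with edgeR 4.0.16 in R 4.3.3 (filterByExpr, TMM, glmQLFit, glmQLFTest, sex as the only term), two-sided, with Benjamini-Hochberg adjustment over all 14814 tested genes and a threshold of 0.05. The SE is the size of the log2 fold change over the square root of F, and can be too small where counts are few. The fit was tested on simulated data. Counting intervals are exact binomial (95%). Between libraries of 1 sex, chi-square over its degrees of freedom was 7.0 to 14.7, above sampling noise.

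Alternatives were other scalings, no low-count filter, DESeq2 1.42.0, limma-voom (limma 3.58.1), a replicate block, a gene length correction and leaving out each library. Values were given per library for genes at or above 1 CPM in every library of at least 1 sex and for Cdh5, Pecam1, Erg, Vwf, Cldn5 and Nos3, and for few-count genes where they stand together. Of the other endothelial genes, those named are the 10 with the smallest adjusted p among those at or above 10 CPM in every library, and Kdr, Tek and Tie1, besides genes at 0. Of each marker list the 3 most abundant per kilobase are named. Other genes were chosen after their values were seen. The members and lists were chosen with earlier results of these data known. Exon overlaps are from GENCODE M21. Some genes are not reported here. The table held 0 columns of other samples.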

Additional observations from a re-analysis of the deposited data

How the results depend on the processing

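Over 14 alternative settings (RLE size factors, total counts, upper quartile scaling, no low-count filter, DESeq2, limma-voom, the replicate block, the gene length correction and 6 fits without 1 library) the number of endothelial identity genes called stayed between 11 and 14, where it was 13, and none of the 17 tested genes changed direction. For 12 of them the call was the same in all 14 settings. The exceptions were Pecam1, Cd93, Calcrl, Egfl7 and Ramp2. The call of Pecam1 was also lost with RLE size factors (adjusted p = 0.0505), DESeq2 (0.06) and without the filter (0.0688). Calcrl was called with total counts (log2 -0.35, adjusted p = 0.00753), upper quartile scaling (0.0142), no filter (0.0283) and the gene length correction (0.0332). The causes were not tested. With total counts only, the median of all tested genes moved to -0.13 on the log2 scale. All genes called numbered 8235 to 9320. Same-numbered libraries of the sexes did not vary together (r = -0.02, -0.10 and -0.15 across 10807 genes), so the numbers of the labels were not taken as pairs. With the replicate block 8525 genes and 12 endothelial identity genes were called, Pecam1 being lost (adjusted p = 0.0681). Without the filter, 32 of the 37 genes entered the fit and 14 were called. At 1 RPKM in place of 1 CPM, 8 genes in place of 10 reached the level in every library. Depth limits the genes under 1 CPM, where a library holds about 20 counts or fewer.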

Other observations

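Some endothelial genes outside the 37 and not described above differed widely between the sexes; they were chosen after their values were seen. Male cells had more Notch4, the Notch receptor of endothelium (4.31 ± 0.559 against 49.8 ± 5.49 CPM, SD, log2 -3.53 ± 0.14), Lmo2, a partner of TAL1 (0.731 against 12.5 CPM, log2 -4.09 ± 0.23), Klf2, the shear-responsive factor (5.22 against 30.1 CPM, log2 -2.53 ± 0.17), and the sialomucin gene Podxl (0.384 against 7.49 CPM, log2 -4.27 ± 0.37). Female cells had more Nrp2, a co-receptor of VEGF-C and semaphorins (172.7 against 3.77 CPM, log2 5.51 ± 0.12), Flt4, VEGF receptor 3 (10.04 against 1.02 CPM, log2 3.29 ± 0.24), and the SOX factor gene Sox7 (5.13 against 0.626 CPM, log2 3.02 ± 0.38). The edgeR adjusted p was at most 2.89e-06 for each of the 7. CPM values are means of 3 libraries per sex, female first, and ± after a log2 change is the SE.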
